A study of Mus musculus with 6 samples.

Results

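The 10 genes described here encode the core of the mTOR kinase complexes and their best known stress-induced inhibitors, namely Mtor, Rptor, Rictor, Deptor, Tsc1, Tsc2, Rheb, Ddit4 (which encodes REDD1), Sesn1 and Sesn2. They were chosen by symbol, and all 10 were found among the 25330 genes of the deposited tables. RNA-seq was performed on AML12 cells, a mouse hepatocyte line derived from a mouse carrying a human TGFA transgene and labelled wild type in this study. The 3 control libraries came from cells kept in normoxia at 21% O2 in DMEM/F12 medium with fetal bovine serum, an insulin, transferrin and selenium supplement and dexamethasone. The 3 hypoxia-reoxygenation (H/R) libraries, labelled H6R2, came from cells that spent 6 h at 1% O2 in medium lacking serum and glucose and were then reoxygenated for 2 h. Oxygen and medium changed together, so their contributions cannot be told apart, and whether the supplement and dexamethasone remained in the deprived medium is not given in the sources used here. No label states that the libraries came from separate cultures, so p-values measure only the spread between these libraries. The comparison asks how mRNA of the mTOR machinery differed after H/R, in a study concerned with autophagy and mTOR signalling during liver ischaemia and reperfusion.

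mTOR is a kinase that works in a pair of complexes. With raptor (Rptor) it forms mTORC1, which drives protein synthesis and restrains autophagy when amino acids, insulin and energy are plentiful, and with rictor (Rictor) it forms mTORC2, which phosphorylates AKT. The small GTPase RHEB activates mTORC1 on the lysosome, and the TSC1-TSC2 complex switches RHEB off. REDD1 favours TSC2 activity in hypoxia and after glucocorticoids, and the Sestrins restrain the Rag GTPase arm that reports amino acids. Liver cells rely on this network to stop growth and begin autophagy when oxygen or nutrients fail.

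Each library held between 20438746 and 21854790 counts assigned to genes. Control replicate 1 stood apart, with 131335 counts of the ribosomal RNA copy Rn18s-rs5 against 28347 to 43775 in the other 5 libraries and 61 counts of the hepatocyte gene Serpina1a against at most 1. Of the hepatocyte markers, Hnf4a was well detected at 2035 to 3209 counts, whereas albumin (Alb) was low, at 132 to 542 counts in controls and 31 to 43 after H/R. Summed CPM (counts scaled to the library total) over the 10 hepatocyte markers were 4185 to 4528 in controls and 6142 to 6175 after H/R, and most of that sum was keratin Krt8 and Krt18, the 2 of 9 tested markers that rose, while 6 fell. Over the 11 listed markers of other liver cells found in the tables, the sum was 1314 to 1480 in controls and 2401 to 2496 after H/R, again mainly keratins (Krt19 and Krt7). Of the 4 that could be tested, those keratins and Cd68, which encodes a lysosomal protein of macrophages, rose, with Cd68 at 16 to 22 counts in controls and 113 to 137 after H/R. Ptprc, Adgre1, Clec4f and Pecam1, which define leukocytes, macrophages, Kupffer cells and endothelium, had at most 3 counts in any library. These marker sums moved with the condition, and their part in the results below was not tested. In such bulk libraries, fewer cells of a type and less RNA per cell cannot be told apart.

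Rictor and Sesn2 rose about 3-fold after H/R, Tsc1 rose 2.26-fold and Sesn1 fell 2.1-fold, while Ddit4 and Rheb did not pass the test. At an adjusted p under 0.05 (edgeR quasi-likelihood test, Benjamini-Hochberg adjustment over 14020 tested genes), 8 of the 10 genes were called. Across all tested genes the share was 62.8%, so being called was the common outcome in this comparison. Sesn2, Rictor, Tsc1, Deptor and Tsc2 rose (5 of 10, beside 31.0% of all genes), and Sesn1, Mtor and Rptor fell (3 of 10, beside 31.8%). With the study's further requirement of a fold change of at least 2, 4 of the 10 remained, where the share of all genes was 8.52%. Of these, 3 were higher (Rictor, Sesn2 and Tsc1, beside 4.25% of all genes) and 1 was lower (Sesn1, beside 4.27%). The H/R and control libraries did not overlap for 8 of the 10 genes, against 65.9% of all genes. The median log2 fold change was 0.13 over the 10 genes and -0.01 over all tested genes.

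**Figure D1:**
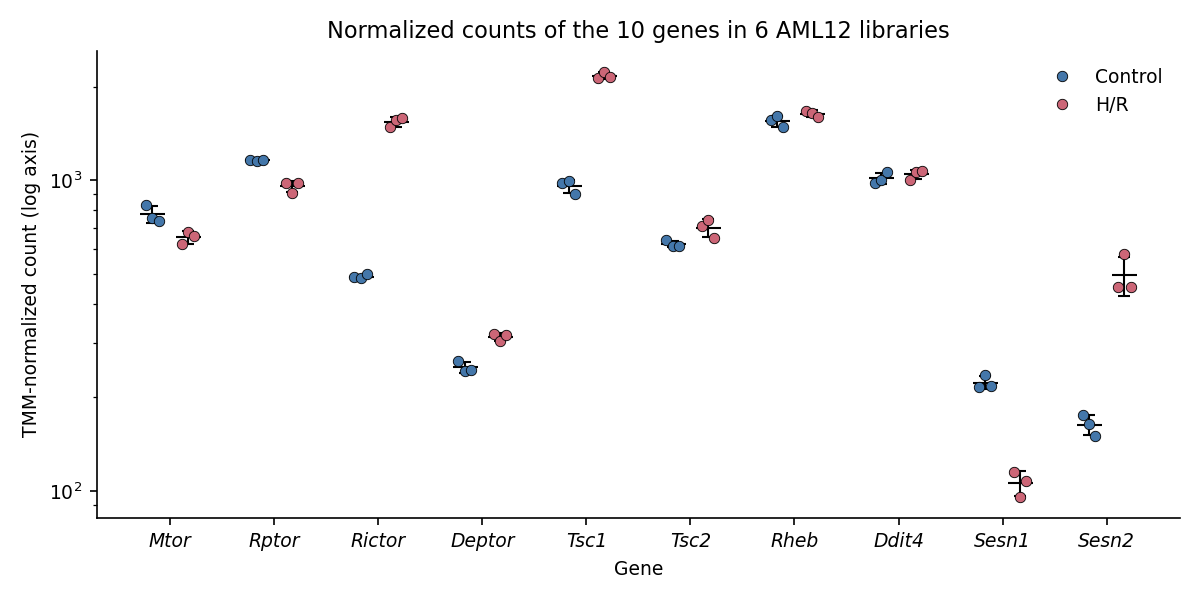
TMM-normalized counts (log axis) of the 10 genes in each of the 3 control and 3 H/R libraries, with horizontal bars for the mean and whiskers for the SD. Rictor, Tsc1 and Sesn2 lie higher and Sesn1 lies lower after H/R with no overlap, whereas Ddit4 and Rheb overlap between the groups.

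The inhibitors that respond to stress did not move as one group. Ddit4 (chromosome 10, 59949675 to 59951770, minus strand, GRCm38) had normalized counts of 977, 1003 and 1059 in the control libraries and 1003, 1060 and 1070 in the H/R libraries. The groups overlapped, and the means were 1013 ± 41.9 and 1044 ± 36.4 (SD, n = 3 each). The log2 fold change of 0.04 (SE 0.054, 95% interval -0.07 to 0.15) did not pass the test (edgeR adjusted p = 0.492), and its sign turned negative when libraries were scaled by upper quartile, by their totals or as RPKM. The upper bound of that interval corresponds to a fold of 1.11, so a larger increase in Ddit4 mRNA at this single time lay outside it. Ddit4 was nevertheless the most abundant of the 10 per length in both groups, at 29.5 ± 1.69 RPKM (reads scaled to gene length and library total) in controls and 28.2 ± 1.19 RPKM after H/R.

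Sesn2 encodes a leucine-sensing Sestrin that responds to amino acid and oxidative stress, and it lies on chromosome 4 (132492032 to 132510501, minus strand). Its normalized counts were 175, 165 and 151 in controls and 454.5, 578 and 454 after H/R. All H/R libraries lay far above all controls, and replicate 2 was the highest of them. The mean rose from 164 ± 12.3 to 495 ± 71.6, a log2 fold change of 1.60 (SE 0.0989, 95% interval 1.40 to 1.80, edgeR adjusted p = 4.44e-15). Of the 4353 genes called higher, 206 rose at least as much, Sesn2 included.

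Sesn1 encodes the Sestrin best known as a target of p53 and FOXO factors (chromosome 10, 41809935 to 41908424, plus strand). It moved in the opposite direction, with normalized counts of 217, 236 and 218 in controls and 115, 96.0 and 108 after H/R. The mean went from 223 ± 10.9 to 106 ± 9.72, and the fall of 1.07 on the log2 scale (SE 0.113) passed the test (edgeR adjusted p = 4.28e-10). The third family member, Sesn3, was not among the 10 genes and fell by 0.44 on the log2 scale (SE 0.0753, edgeR adjusted p = 4.75e-06), from 527 ± 18.9 to 388 ± 36.1 normalized counts.

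Sesn2 and Sesn1 changed places in order of abundance. In RPKM, the ratio of Sesn2 to Sesn1 within a library was 0.926, 0.800 and 0.794 in controls and 4.52, 6.90 and 4.82 after H/R. The ratio was below 1 in every control and above 4 in every H/R library, and its change of 2.67 on the log2 scale needs no scaling between libraries. Sesn2 made up 34.2% ± 1.51 of the summed Sestrin RPKM in controls and 73.0% ± 4.07 after H/R. The Sesn1 share went from 40.8% ± 1.86 to 13.9% ± 2.28, and the Sesn3 share from 25.1% ± 0.978 to 13.1% ± 1.86. The sum itself went from 6.74 ± 0.145 to 8.86 ± 0.758 RPKM, with no overlap between the groups. Ddit4l, the REDD1 relative, was too low for the test, at 3 to 5 counts in controls and 6 to 17 after H/R.

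The promoters of Ddit4, Sesn2 and Sesn1 are shown because these stress-responsive genes diverged in the same cells. Each is the run of 250 bases before a RefSeq start site in GRCm38.p6, written 5′ to 3′ on the strand of the gene, with matches to the motifs described further on in capitals. Ddit4 lies at chr10:59951771-59952020 (minus), Sesn2 at chr4:132510457-132510706 (minus) and the second Sesn1 start at chr10:41887189-41887438 (plus).
Ddit4: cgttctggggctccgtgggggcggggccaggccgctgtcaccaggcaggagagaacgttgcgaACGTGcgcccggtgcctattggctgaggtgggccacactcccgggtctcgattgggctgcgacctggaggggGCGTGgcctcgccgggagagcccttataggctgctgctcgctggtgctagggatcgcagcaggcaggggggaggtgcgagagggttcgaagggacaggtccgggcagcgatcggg
Sesn2: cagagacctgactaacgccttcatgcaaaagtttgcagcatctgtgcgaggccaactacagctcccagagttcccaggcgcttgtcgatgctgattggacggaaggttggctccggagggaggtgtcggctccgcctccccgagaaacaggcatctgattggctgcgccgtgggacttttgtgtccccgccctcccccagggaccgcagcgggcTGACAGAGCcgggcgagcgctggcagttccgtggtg
Sesn1: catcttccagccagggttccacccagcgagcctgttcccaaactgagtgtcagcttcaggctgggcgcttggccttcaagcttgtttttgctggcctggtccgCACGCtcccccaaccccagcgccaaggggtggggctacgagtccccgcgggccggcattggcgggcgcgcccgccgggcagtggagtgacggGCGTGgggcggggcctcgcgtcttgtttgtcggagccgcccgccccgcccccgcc

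Within the kinase complexes, the mTORC2 subunit gene Rictor rose, while Mtor and the mTORC1 subunit gene Rptor fell slightly. Mapkap1, which encodes a further mTORC2 subunit and is described below, fell by 0.31 on the log2 scale. Rictor (chromosome 15, 6708381 to 6800398, plus strand) had normalized counts of 488, 483 and 498 in controls and 1480, 1564 and 1588 after H/R. The H/R libraries were all near 3 times the controls, with means of 489 ± 7.78 and 1544 ± 56.7. The log2 fold change of 1.66 (SE 0.0558, 95% interval 1.54 to 1.77, edgeR adjusted p = 2.13e-23) had the lowest adjusted p of the 10, and by p-value Rictor ranked 69 among 14020 genes. Of the 4353 genes called higher, 188 rose at least as much, Rictor included.

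Rptor (chromosome 11, 119602905 to 119899576, plus strand) had normalized counts of 1164, 1153 and 1158 in controls and 980, 909 and 979 after H/R. Every H/R library lay below every control, and the fall of 0.28 on the log2 scale (SE 0.0529) was called (edgeR adjusted p = 2.79e-05). Mtor (chromosome 4, 148448611 to 148557683, plus strand), which encodes the kinase shared by both complexes, had 831, 758 and 739 in controls and 621, 683 and 659.5 after H/R. It fell by 0.25 on the log2 scale (SE 0.062, edgeR adjusted p = 0.000855). Its highest value came from control replicate 1, and without that library the fall was 0.19 (edgeR adjusted p = 0.0154). Both falls were small, with the H/R means at 0.826 and 0.843 times the control means for Rptor and Mtor, and among the 4453 genes called lower, 3540 and 3726 fell at least as much, the gene itself included.

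Deptor (chromosome 15, 55112317 to 55259271, plus strand) encodes a protein that binds mTOR and inhibits both complexes. Normalized counts were 261, 243 and 246 in controls and 321, 303 and 317 after H/R, with no overlap. It rose 1.25-fold (log2 fold change 0.33, SE 0.0867, edgeR adjusted p = 0.00141), and the call was lost on log2(RPKM + 0.1) values (adjusted p = 0.0606). The gene shares 3.41% of its exon length with Gm9920 on the other strand, which had 61 to 88 counts.

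The ratio of Rictor to Rptor in RPKM was 0.606, 0.606 and 0.622 in controls and 2.18, 2.49 and 2.35 after H/R. Per length, the more abundant of these partners was thus raptor mRNA in every control and rictor mRNA in every H/R library, a change of 1.93 on the log2 scale. Deptor to Mtor went from 0.367 ± 0.0105 to 0.547 ± 0.0413, a change of 0.57, and Ddit4 to Mtor from 7.86 ± 0.776 to 9.58 ± 0.228, a change of 0.29. None of these ratios overlapped between the groups. With 3 libraries against 3, the exact two-sided permutation test cannot go below p = 0.1, which was the value for these ratios and for Sesn2 to Sesn1 (0.12 after adjustment over the 6 ratios computed).

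**Figure D2:**
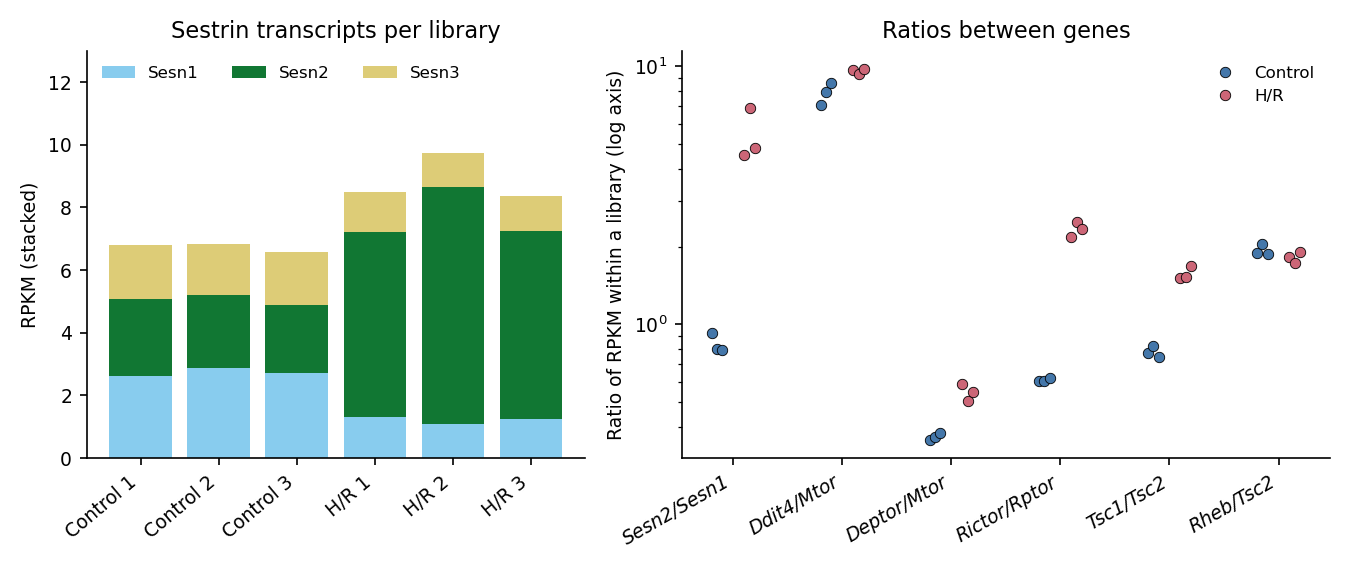
Left, stacked bars of Sesn1, Sesn2 and Sesn3 RPKM in each library. Right, ratios of RPKM between genes within each library (log axis), 1 point per library. Sesn2 to Sesn1 lies below 1 in the controls and above 4 after H/R, Rictor to Rptor shifts from about 0.6 to above 2, and Rheb to Tsc2 overlaps.

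The switch upstream of mTORC1 was also uneven. Tsc1 (chromosome 2, 28641228 to 28691167, plus strand) encodes hamartin, which stabilises the TSC complex, and had normalized counts of 978, 992 and 906 in controls and 2125, 2228 and 2153 after H/R. The groups were far apart. The mean went from 959 ± 46.3 to 2169 ± 53.4, and the log2 fold change of 1.18 (SE 0.0496, 95% interval 1.08 to 1.28) had an edgeR adjusted p of 1.2e-20.

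Tsc2 (chromosome 17, 24595937 to 24632629, minus strand) encodes tuberin, the GTPase-activating partner. It had 640, 613 and 616 normalized counts in controls and 714, 742 and 651 after H/R, with the lowest H/R library only just above the highest control. Tsc2 rose 1.13-fold (log2 0.17, SE 0.0626, edgeR adjusted p = 0.017). The direction was kept in all 15 alternative analyses, with log2 fold changes from 0.06 to 0.23. The call was lost in 7 of them, including DESeq2 and each scaling tried, with adjusted p up to 0.403. It was also lost without H/R replicate 1 (edgeR adjusted p = 0.0521) or replicate 2 (0.116). Tsc2 also shares 9.6% of its exon length with Pkd1 on the opposite strand, which had 232 to 362 counts.

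Rheb (chromosome 5, 24802823 to 24842624, minus strand), which encodes the GTPase that the TSC complex inactivates, had 1556, 1610 and 1479 normalized counts in controls and 1673, 1644 and 1593 after H/R. The groups overlapped, and the log2 fold change of 0.08 (SE 0.0481, 95% interval -0.02 to 0.18, edgeR adjusted p = 0.151) turned negative when libraries were scaled by their totals or as RPKM. In RPKM, Tsc1 to Tsc2 went from 0.783 ± 0.0381 to 1.57 ± 0.094, a fold of 2.01 with no overlap (exact permutation p = 0.1, the smallest possible). Rheb to Tsc2 was 1.94 ± 0.0963 and 1.82 ± 0.0911 and overlapped (exact permutation p = 0.3).

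The promoters of Rictor and Tsc1, the complex members with the largest increases, are given in the same form, at chr15:6708131-6708380 (plus) and chr2:28640983-28641232 (plus).
Rictor: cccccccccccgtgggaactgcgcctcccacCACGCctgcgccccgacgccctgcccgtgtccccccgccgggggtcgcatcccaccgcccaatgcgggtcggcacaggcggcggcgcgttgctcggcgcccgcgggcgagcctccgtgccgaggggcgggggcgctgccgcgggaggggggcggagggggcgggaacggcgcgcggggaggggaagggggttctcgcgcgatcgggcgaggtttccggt
Tsc1: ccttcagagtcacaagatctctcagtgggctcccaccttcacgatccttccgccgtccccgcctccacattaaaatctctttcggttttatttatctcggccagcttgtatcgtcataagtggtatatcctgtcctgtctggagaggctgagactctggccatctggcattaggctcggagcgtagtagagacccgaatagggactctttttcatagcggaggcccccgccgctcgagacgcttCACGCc

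RefSeq promoter windows, 250 bases before to 50 after a start site, were found for 9 of the 10 genes, with separate windows for the 2 Sesn1 starts. Both strands were searched for short motifs of factors that act in hypoxia, nutrient stress or oxidative stress, and a match is a description of letters only. The hypoxia response cores were ACGTG, held by 19.6% of 32817 RefSeq promoters of this length, and GCGTG, held by 32.4%. Ddit4, whose mRNA did not pass the test, had 1 match of each, at positions -187 to -183 and -115 to -111 from its start. The same GCGTG core, on either strand, was found once in the Rictor, Tsc1 and Tsc2 windows and at both places marked for Sesn1, genes that moved in different directions. Rptor held 1 of each core, and Rheb held ACGTG within the E-box CACGTG (7.15% of promoters).

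The NRF2 core TGACNNNGC, held by 12.4% of promoters, matched Sesn2 at positions -36 to -28 and matched Rheb at 2 places, 1 of them overlapping the E-box. The other Sesn1 window, at chr10:41810324-41810623, contained a heat shock unit pair (GAANNTTC, 7.86% of promoters) and a FOXO motif (GTAAACA, 3.65%) shortly after its start. No window of the 10 held the ATF4-C/EBP motif TGATGNAA (3.97% of promoters), the AP-1 motif TGANTCA (7.81%), the CREB/ATF motif TGACGTCA (1.79%) or the other heat shock spacing TTCNNGAA (8.51%), and the Mtor window held none of the motifs searched. The windows of Ddit4, Rictor and Tsc1 had 69.0%, 78.3% and 57.3% G and C, where the median of all promoters was 52.7%. Rheb had 70.0%, the Sesn1 windows 66.7% and 71.0%, Tsc2 65.0%, Sesn2 64.7%, Mtor 56.7% and Rptor 41.7%.

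Ordered by level per length in controls, the 10 genes ran from Ddit4 (29.5 RPKM) through Rheb (9.82), Tsc2 (5.07), Rptor (4.21), Tsc1 (3.97), Mtor (3.76), Sesn1 (2.75), Rictor (2.58) and Sesn2 (2.30) to Deptor (1.38). Tsc1 and Mtor overlapped between libraries, as did Sesn1 and Rictor, so the order within those pairs was not resolved. After H/R the order was Ddit4 (28.2 RPKM), Rheb (9.65), Tsc1 (8.35), Rictor (7.55), Sesn2 (6.49), Tsc2 (5.31), Rptor (3.23), Mtor (2.95), Deptor (1.61) and Sesn1 (1.22). Here Rictor overlapped with Sesn2 and Rptor with Mtor. Tsc1, Rictor and Sesn2 thus moved above Tsc2 and Rptor, Rictor and Sesn2 also above Mtor, and Sesn1 moved from the seventh place to the lowest.

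**Figure D3:**
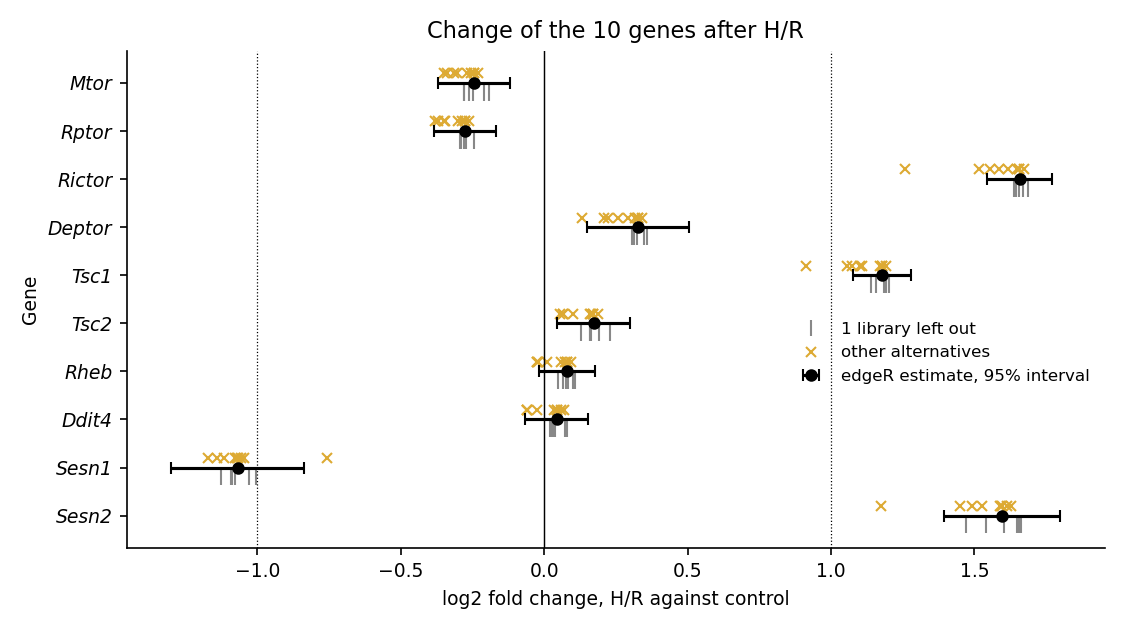
Log2 fold change of each gene, H/R against control, as the edgeR estimate (point) with its 95% interval (bar), with small lines for the estimates with 1 library left out and crosses for other scalings, filters, tools and units. Dotted lines mark a 2-fold change. Rictor, Sesn2 and Tsc1 lie above 1, except Tsc1 at 0.91 on log2(RPKM + 1), where Sesn1 is at -0.76, while Ddit4 and Rheb lie near 0 on either side.

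The other listed subunits, partners and relatives of the 10 genes mostly fell, the other way from Rictor and Tsc1. Of 9 tested genes in this list, 8 fell and none rose (88.9% called, against 62.8% of all genes), and none reached a 2-fold change. The list includes Sesn3, described above, whose value is also the median of the list (-0.44), and of the 8 others 7 fell. Akt1s1, which encodes the raptor-binding inhibitor PRAS40, went from 1580 ± 114 to 1011 ± 36.3 normalized counts (log2 -0.65, edgeR adjusted p = 1.71e-12). Mlst8, the subunit common to both complexes, fell by 0.40 (edgeR adjusted p = 0.000258), although 29.6% of its exon length is shared with Bricd5. Mapkap1, which encodes the mTORC2 subunit mSIN1, fell by 0.31 (edgeR adjusted p = 2.24e-05), the opposite of Rictor.

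Tti1, a scaffold for the assembly of mTOR and related kinases, fell by 0.57 on the log2 scale (edgeR adjusted p = 1.86e-06). Tbc1d7, a smaller subunit of the TSC complex, fell by 0.49 (edgeR adjusted p = 0.00471), and the RHEB relative Rhebl1 fell by 0.43 (edgeR adjusted p = 0.04). Those last calls were the least secure. Tbc1d7 missed the threshold with DESeq2 (adjusted p = 0.052), and Rhebl1 did so in 6 of 15 alternatives (adjusted p up to 0.179), among them those without control replicate 1 or 3 or H/R replicate 1 or 2. Tti2 was the 1 tested gene of the list that was not called (log2 -0.02, edgeR adjusted p = 0.749), and it shares 14.6% of its exon length with the more highly counted Mak16 (7264 to 8515 counts). Prr5, a further mTORC2 subunit, had at most 2 counts in any library.

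The Rag GTPase arm, which carries the amino acid signal that Sestrins restrain, moved in both directions, as did the tested genes as a whole. Of 25 tested genes, 9 rose and 8 fell (68.0% called, against 62.8%), and the median log2 fold change was -0.03. Among all tested genes 31.0% rose and 31.8% fell. The counts by direction depended on scaling, with 6 higher and 11 lower when libraries were scaled by their totals, and 6 and 10 on log2 RPKM. Fnip1 and Flcn, which encode the folliculin complex that acts on the RagC and RagD GTPases, rose together. Fnip1 went from 687 ± 27.7 to 2265 ± 76.8 normalized counts (log2 1.72, edgeR adjusted p = 8.03e-25) and Flcn from 250 ± 27.5 to 685 ± 29.2 (log2 1.46, edgeR adjusted p = 1.29e-17).

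Depdc5, a subunit of the GATOR complex that inactivates RagA and RagB, went from 577 ± 23.2 to 231 ± 18.4 (log2 -1.32, edgeR adjusted p = 3.68e-16). Rragb itself, encoding RagB, fell by 1.10 on the log2 scale (edgeR adjusted p = 3.94e-12). Gatsl2, the symbol used in the tables for Castor2, fell by 1.57 from 43 to 48 raw counts to 12 to 15 (edgeR adjusted p = 3.97e-06). Its relative Castor1 (Gatsl3), named after its values were seen, encodes the arginine sensor. Castor1 was too low for the test, at 5 to 9 raw counts. Of the genes changed by less than 2-fold, Lamtor3 (0.48) and Rragc (0.32) rose, whereas Wdr24 (-0.78), a subunit of the GATOR complex that opposes Depdc5, and Lamtor1 (-0.39) fell on the log2 scale, with edgeR adjusted p-values from 1.57e-09 to 5.46e-06. Lamtor1 and Lamtor3 belong to the scaffold that tethers the Rag GTPases to the lysosome, and Lamtor1 shares 18.7% of its exon length with Lrrc51, which had 10 to 21 counts.

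Among 17 kinases that signal to mTOR or the TSC complex, 8 rose and 3 fell (64.7% called, against 62.8%). With library totals as the scale the counts were 6 and 6, and on log2 RPKM 4 and 4, so the excess of rises was not kept. The 1 gene past a 2-fold change was Prkag2, a regulatory subunit of the energy-sensing kinase AMPK, which fell by 1.00 on the log2 scale (edgeR adjusted p = 1.29e-11), just past that threshold. Its exons share 12.3% of their length with Prkag2os2 on the other strand, which had 30 to 65 counts. Pdpk1, which activates AKT, rose by 0.56 (edgeR adjusted p = 1.8e-09), and Rps6ka3, a kinase that phosphorylates TSC2, rose by 0.44 (edgeR adjusted p = 2.96e-08). Akt1 fell by 0.35 (edgeR adjusted p = 4.94e-08) and Stk11, which encodes the AMPK activator LKB1, by 0.37 (edgeR adjusted p = 4.9e-08). The AMPK subunit genes did not move together. Prkab2 rose by 0.97 (edgeR adjusted p = 8.84e-08), Prkab1 by 0.24 (edgeR adjusted p = 6.93e-05) and Prkaa1 by 0.22 (edgeR adjusted p = 0.000245). The calls of Prkab1 and Prkaa1 were lost on log2 RPKM, and that of Prkaa1 also with library totals as the scale. Prkag1 and Prkaa2 were not called. Prkag1 shares 44.6% of its exon length with B130046B21Rik on the other strand, which had 944 to 1110 counts. Prkaa2 was low, at 11 to 21 raw counts. All of the AMPK subunit genes but Prkag2 were named after their values were seen.

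Among 19 tested substrates and effectors of mTORC1, 9 rose and 4 fell (68.4% called, against 62.8%), with a median log2 fold change of 0.09, and on log2 RPKM the counts were 7 and 6. Mitf, a lysosomal and autophagy transcription factor of the TFEB family, went from 90.7 ± 8.64 to 283 ± 21.5 normalized counts (log2 1.64, edgeR adjusted p = 8.94e-15). The translation repressor gene Eif4ebp1 rose by 0.56 on the log2 scale (edgeR adjusted p = 4.13e-14). Its relative Eif4ebp2, named after its value was seen, fell by 0.64 (edgeR adjusted p = 8.71e-10). Eef2k, whose kinase slows elongation, rose by 0.78 (edgeR adjusted p = 2.1e-16), and Atg13, which encodes a partner of the autophagy-starting kinase ULK1, rose by 0.96 (edgeR adjusted p = 3.99e-11). Ulk1 itself fell by 0.71 (edgeR adjusted p = 3.04e-08), and Tfeb was not called (log2 -0.11, edgeR adjusted p = 0.381). Both were named after their values were seen. Eif4g1, which encodes the scaffold of the cap-binding complex, fell by 0.71 (edgeR adjusted p = 5.9e-16), from 25570 ± 355 to 15582 ± 240 normalized counts.

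**Figure D4:**
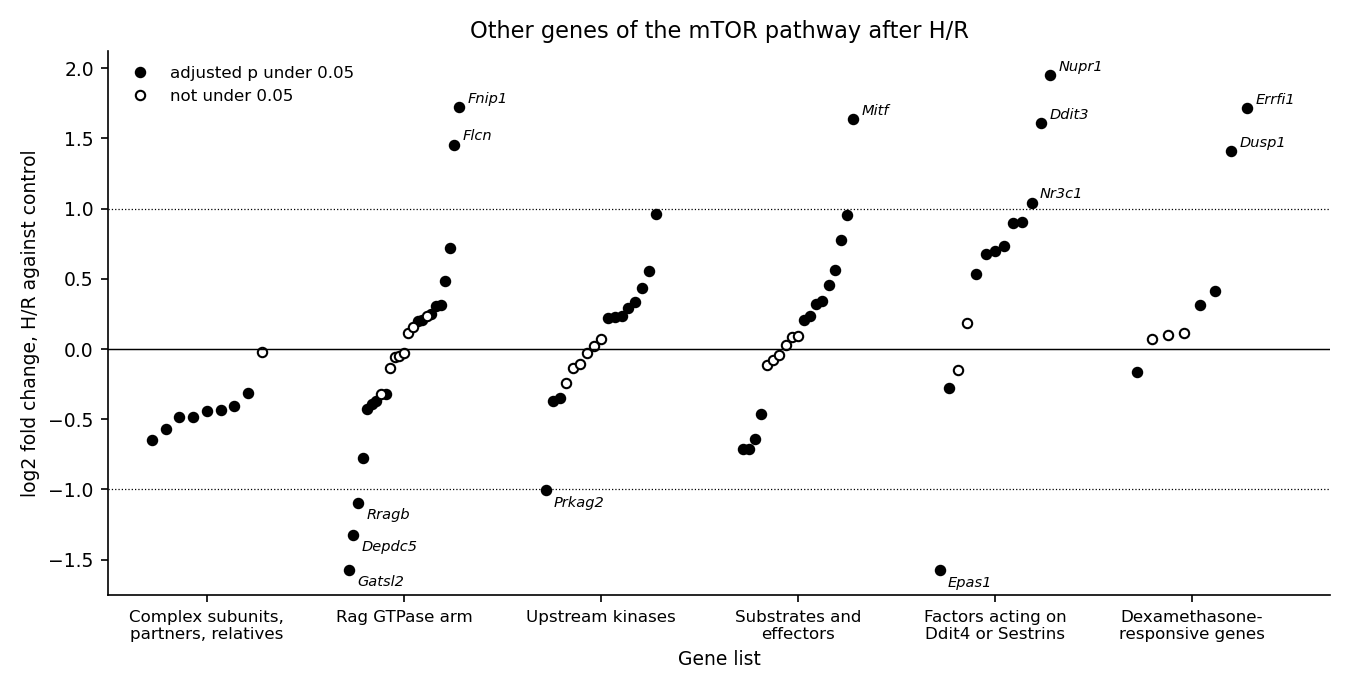
Log2 fold change of every tested gene in 6 lists around the 10 genes, 1 point per gene, filled where the edgeR adjusted p was under 0.05. Dotted lines mark a 2-fold change, and the genes beyond them are named. Most of the subunits and partners fall between -0.65 and -0.31, while the other lists spread to both sides of 0.

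Transcription factors known to act on Ddit4 or Sestrin genes mostly rose. Of 13 tested, 9 rose and 2 fell (84.6% called, against 62.8%), with a median log2 fold change of 0.70. Hif1a, the oxygen-regulated subunit of the hypoxia-inducible factor, rose by 0.70 (edgeR adjusted p = 1.09e-16) and its partner Arnt by 0.90 (edgeR adjusted p = 3.37e-18), whereas Epas1, the second oxygen-regulated subunit, fell by 1.58 (edgeR adjusted p = 2e-12). The stress-response factors Nupr1 (1.95, edgeR adjusted p = 8.07e-26), Ddit3 (1.61, edgeR adjusted p = 6.98e-20) and Atf4 (0.73, edgeR adjusted p = 2.11e-16) rose. Nfe2l2, which encodes NRF2, rose by 0.67 (edgeR adjusted p = 5.05e-15), and Trp53, which encodes p53, fell by 0.28 (edgeR adjusted p = 3.76e-05). The FOXO genes Foxo3 (0.90, edgeR adjusted p = 8.9e-14) and Foxo1 (0.54, edgeR adjusted p = 0.000841), named after their values were seen, rose. The call of Foxo1 was lost on log2(RPKM + 0.1) values (limma adjusted p = 0.0507). All values for these factors are mRNA levels, and neither the proteins nor their binding was measured in these libraries.

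The glucocorticoid receptor gene Nr3c1 rose by 1.04 (edgeR adjusted p = 5.13e-19). Because controls received dexamethasone and Ddit4 is a glucocorticoid-responsive gene, 8 dexamethasone-responsive genes were examined, of which 4 rose and 1 fell (62.5% called, against 62.8%). Errfi1 (1.71, edgeR adjusted p = 7.83e-17), Dusp1 (1.41, edgeR adjusted p = 5.15e-18), Per1 (0.41, edgeR adjusted p = 3.98e-09) and Klf9 (0.31, edgeR adjusted p = 8.9e-06) rose, and Sgk1 fell by 0.17 (edgeR adjusted p = 0.00112). The 3 that did not pass, named after their values were seen, were Tsc22d3 (log2 0.08), Fkbp5 (0.10) and Zbtb16 (0.11). Whether the hormone remained on the H/R cells is not known from these values, and its part in the level of Ddit4 was not tested.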

How the data were processed

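Total RNA of 6 AML12 libraries was made into stranded mRNA libraries and sequenced with paired ends. The authors mapped reads to GRCm38 with software printed as STRA in the methods, and the submitters' processing notes name Trimmomatic 0.36, featureCounts (Subread 1.5.1) and edgeR 3.12.1. The annotation and the strand setting of counting are not given in the sources used here. The deposited counts are whole reads per gene without normalization. The deposited RPKM values could be recomputed from count, gene length and library total (largest relative error 1.13e-06).

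Counts were tested here with edgeR 4.0.16 (R 4.3.3), using filterByExpr, TMM scaling, a robust quasi-likelihood fit and Benjamini-Hochberg adjustment over 14020 genes. The step was tried on simulated data in which 200 genes changed, up and down. Far more genes were called in the real data, so that trial does not test the scaling under such broad change. Normalized counts are counts divided by effective library size and multiplied by its mean. Called means an adjusted p under 0.05, and the study's fold threshold of 2 was added where stated. RPKM served for levels between genes and for ratios within a library. It divides by all merged exon bases of a gene, and the transcript forms present were not examined. Orders and shares between genes therefore depend on that length, whereas the change of a ratio does not. Alternatives used DESeq2 1.42.0, limma 3.58.1 on log2(RPKM + 1) and log2(RPKM + 0.1), other scalings and filters, and libraries left out. Replicates of a group differed by more than sampling noise, most of all in pairs with control replicate 1. Chi-square per degree of freedom was 15.5 and 16.2 in those pairs, 5.6 in the other control pair and 2.2 to 3.4 within H/R. All 6 libraries were kept, and each was left out in turn.

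The 10 genes and the gene lists were chosen with earlier results of these data known. The text names the 10 genes, list genes past both thresholds, up to 4 more per list with the lowest adjusted p, the nearest relatives and partners of the 10, and Hif1a, Atf4, Trp53 and Nr3c1. Further genes are marked as named after their values were seen. Castor1 and Castor2 were matched as Gatsl3 and Gatsl2, and Prr5l, Kics2 and Epcam were not matched by symbol. Promoter sequences are from RefSeq for GRCm38.p6, and gene coordinates are those of the deposited tables.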

Additional observations from a re-analysis of the deposited data

How the results depend on the processing

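All 10 estimates were recomputed under 15 alternatives. Sesn1, Sesn2, Mtor, Rptor, Rictor and Tsc1 kept their direction and call in each of them, with log2 fold changes between 1.26 and 1.69 for Rictor, 1.18 and 1.66 for Sesn2, 0.91 and 1.20 for Tsc1, and -1.17 and -0.76 for Sesn1. Ddit4 and Rheb were not called in any alternative and changed sign with the scaling. Ddit4 was at -0.0262 with upper quartile scaling, -0.0609 with library totals alone, -0.0584 on log2 RPKM with a pseudocount of 1 and -0.0602 with a pseudocount of 0.1. In the last 3 of these Rheb was at -0.0249, -0.022 and -0.024. Scaling by library totals moved the median of all genes from -0.01 to -0.12, and the calls from 4353 higher and 4453 lower to 3346 and 5478, or to 3173 and 5304 on log2(RPKM + 1). The number of the 10 genes called ranged from 6 to 8, with 3 rather than 5 higher on log2(RPKM + 0.1) and 4 to 5 with 1 library left out. Past both thresholds there were 2 rather than 4 on log2(RPKM + 1), where the pseudocount shrinks low genes and 406 rather than 1195 of all genes passed, and 4 in each analysis with 1 library left out. Without control replicate 1, 8 genes were called and 4 passed both thresholds. Offsets for gene length and GC, chosen after seeing the data, gave 1.62 for Rictor, 1.10 for Tsc1, 1.63 for Sesn2 and -1.05 for Sesn1. Same-numbered libraries did not deviate together (correlations -0.03, 0.00 and -0.01), so the numbers were not taken to pair them, and with a replicate block 8 of the 10 genes were called, 4 passed both thresholds and 1200 of all genes did, sharing 1192 with the 1195. The 6 ratios kept their direction in all 7 alternatives, and no list's count of calls, both directions together, moved by over 1.5 times. By direction, calls moved from 8 higher and 3 lower to 6 and 6 (totals) or 4 and 4 (RPKM) for the upstream kinases, from 9 and 8 to 6 and 11 or 6 and 10 for the Rag GTPase arm, and from 9 and 4 to 8 and 5 or 7 and 6 for the substrates and effectors. Genes that overlap others on the opposite strand may share reads, because the strand setting is not given.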
